A study of Hordeum vulgare with 2 samples.

Results

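Non-specific lipid transfer proteins (nsLTPs) of germinated barley embryos were followed through their cysteine peptides, taken as every peptide whose deposited protein name contains the words lipid transfer in either of 2 runs. This gave 9 of the 210 distinct peptides of the series, from 4 protein entries. The blocked run held 8 of its 199 peptides, the control run 3 of its 93, and 2 of the 9 were read in both. The entries were nsLTP1 (gi|47168353, 4 peptides), an entry named only lipid transfer protein (gi|6492243, 3 peptides, called the unnumbered LTP here), nsLTP6 (gi|55275991, 1 peptide) and LTP 7a2b (gi|1261917, 1 peptide).

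Both samples were extracts of embryos dissected from seed of the malting cultivar Barke after 48 h of germination, with free thiols alkylated by iodoacetamide (IAM) at extraction. Thioredoxin (Trx), a small redox protein that opens disulfide bonds, was added to one arm and left out of the other for an incubation of 1 h. In the blocked run IAM was then given again at 10 mM, and in the control run it was not. All cysteines still able to react after chemical reduction were given an isotope-coded affinity tag (ICAT), light in the arm with Trx and heavy in the arm without, and the arms were pooled, so a cysteine opened by Trx and capped by IAM is missing from the light form and has a heavy/light ratio above 1. The source name of the control sample calls it untreated with Trx, while its fuller description has both arms, and the fuller description was followed. Each group is 1 sample, so the values carry the authors' SD within a run (±) and no replicate error, no test between the runs was possible, and differences describe these samples only.

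Lipid transfer proteins are small, secreted plant proteins that bind lipids in a hydrophobic tunnel held together by disulfide bonds. Barley nsLTP1 is known as an abundant protein of the aleurone layer and as a protein that survives into beer. Members of the family share an 8-cysteine pattern in which the third and the fourth cysteines are adjacent and the fifth and the sixth have a single residue between them. In nsLTP1 the first cysteine is bonded to the sixth, the second to the third, the fourth to the seventh, and the fifth to the eighth. Germinating seed is a tissue in which Trx is known to reduce disulfide proteins.

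The 6 peptides of up to 11 residues are shown because each places a ratio on that pattern. They are read from the deposited tables, each cysteine is the residue that carries the tag, and the place on the pattern was assigned by motif and chain end.
nsLTP1, the first cysteine, at the start of the chain: LNCGQVDSK
nsLTP1, the fifth and the sixth: QTVCNCLK
Unnumbered LTP, the seventh: CNVNLPYK
Unnumbered LTP, the eighth, at the end of the chain: ISPSVDCNSIH
nsLTP6, the third and the fourth: APGGGCCTGVR
LTP 7a2b, the second: LAPCVAYVTGR
The other 3 peptides are longer and are named by length: 17 residues of nsLTP1 with the seventh and the eighth cysteines, 23 residues of nsLTP1 with the second to the fourth, and 19 residues of the unnumbered LTP with the third and the fourth. The residues flanking the N-terminal peptide and the 23-residue peptide show that they adjoin in the chain. Over both runs the 4 nsLTP1 peptides held 8 cysteines, which is the whole pattern, with 5 of them read in each run. Each of these 4 peptides also matches 1 further database entry.

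With the block, 7 of the 8 peptides lay above 1.24, the upper control limit (mean + 2 SD of log2 ratio over all 93 control peptides, with a lower limit of 0.822). Over all 199 peptides of the blocked run 50.8% lay above, so a value above the limit was common in this run. The share of the lipid transfer peptides was 87.5%, with an exact Clopper-Pearson 95% interval of 47.3% to 99.7%, which holds the share of the whole run. The interval covers counting error only and is no test. It treats peptides as independent, although nsLTP1 and the unnumbered LTP gave 3 each. Their median ratio was 1.5015, against 1.249 over all peptides of the run. Centring each run on its own median removes any shift common to a run, including a response to the block that many peptides share. With that centring 3 of the 8 lay above, and with a fixed limit of 1.5 there were 4. The exact share of all peptides was not counted under these settings, but places in the run bracket it. ISPSVDCNSIH, the lowest of the 4 above 1.5, held place 64 of 199, and the next lipid transfer peptide, at 1.498, place 66. After centring, the lowest of the 3 above, the 19-residue peptide of the unnumbered LTP, held place 33, and the next, ISPSVDCNSIH, place 64. In the control run 1 of 3 lay above the limit, where 2.15% of all control peptides did, a share kept small because these peptides set the limit.

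**Figure D1:**
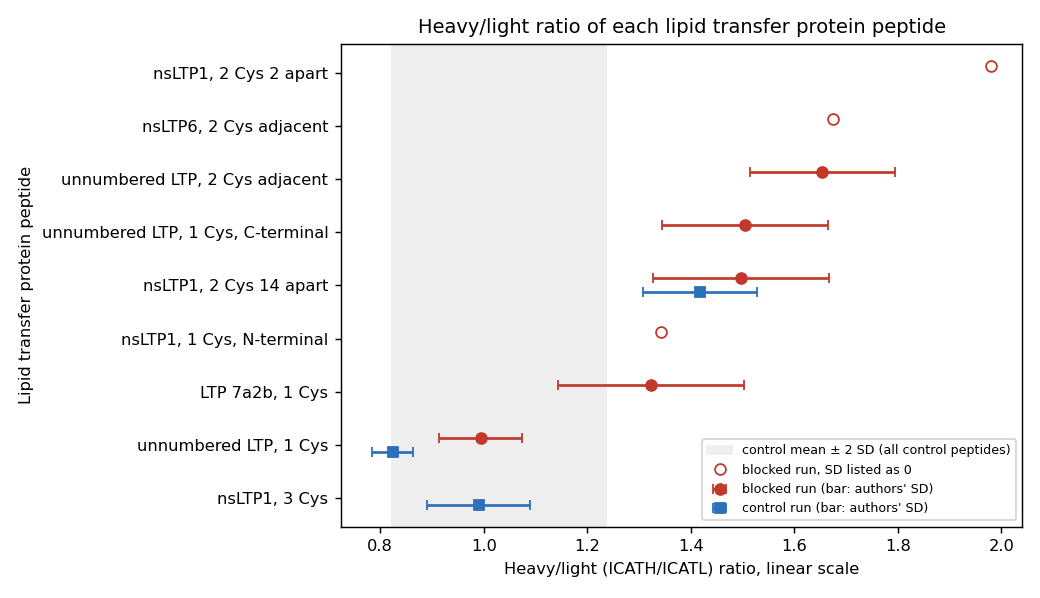
Heavy/light ratio (horizontal axis, linear) of the 9 lipid transfer protein peptides in the blocked run (red circles) and the control run (blue squares). Bars are the authors' SD, open circles have an SD listed as 0, and the grey band runs from 0.822 to 1.24; the blocked ratios reach from 0.994 to 1.98, and the control ratios from 0.824 to 1.42.

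In nsLTP1, the best covered entry, all 3 peptides of the blocked run lay above the limit. QTVCNCLK had the highest ratio of the family, 1.981, place 6 of 199 in the run, which corresponds to an apparent loss of 49.5% of the light form. That loss takes the unblocked ratio as 1, which is unknown here, and is not a loss at either of its 2 cysteines. The SD of QTVCNCLK is listed as 0, which was not read as an absence of error, and its Mascot score of 28 is below the median of 41 in that run. The N-terminal LNCGQVDSK had 1.342, also with an SD listed as 0, at a score of 46. The 17-residue peptide had 1.498 ± 0.17 at a score of 85, but it was above the limit without the block too, at 1.418 ± 0.11. The others have no control value. The N-terminal peptide and QTVCNCLK hold the ends of the bond between the first and the sixth cysteines. QTVCNCLK holds the fifth cysteine as well, so its ratio is not that of the sixth alone. No SD is available to set the ratios of these peptides apart.

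The 23-residue peptide of nsLTP1, with 3 cysteines, was read in the control run only and had 0.990 ± 0.10, close to the control median of 1.011. It had a Mascot score of 33 and a calibrated mass error of 42.0 ppm, place 3 in absolute size among the 93 control peptides. The second to the fourth cysteines of nsLTP1 therefore have no ratio with the block, and whether they differ from the others was not tested.

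In the unnumbered LTP, 1 of 3 peptides stood apart from the other two by more than the authors' SD. Its 19-residue peptide with the third and the fourth cysteines, which are adjacent, had 1.654 ± 0.14 and its C-terminal ISPSVDCNSIH, with the eighth, 1.505 ± 0.16. CNVNLPYK, with the seventh, had 0.994 ± 0.08 and was the only lipid transfer peptide within the limits in the blocked run, at place 178 of 199. CNVNLPYK and ISPSVDCNSIH adjoin in the chain, as their flanking residues show. In the blocked run these neighbouring tryptic peptides of the same entry thus differed 1.51-fold with SD ranges (ratio ± SD) apart. The 19-residue peptide stood 1.66-fold above CNVNLPYK, also with ranges apart. The blocked value of CNVNLPYK has a Mascot score of 28. Its control ratio was already low, at 0.824 ± 0.04, and neither of the other peptides has a control value. On the pattern known from nsLTP1 the fourth and the seventh cysteines are bonded to each other, but the 19-residue peptide holds another cysteine as well, and the bonds of this entry were not measured here.

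The closing stretch of the chain can be set side by side between these entries. From the seventh to the eighth cysteine the nsLTP1 and unnumbered LTP sequences were identical at 11 of 15 positions. Counted from 1 at the seventh cysteine, with the nsLTP1 residue first, the substitutions were V5L, T8K, D12S and I13V. T8K adds a lysine, after which trypsin cuts, so the unnumbered LTP gave a separate peptide for each of these cysteines where nsLTP1 gave 1 peptide for both. The nsLTP1 peptide with both cysteines (1.498 ± 0.17) was close to the unnumbered LTP's eighth cysteine (1.505 ± 0.16), with overlapping ranges, and above its seventh (0.994 ± 0.08), with ranges apart. This order is that of the blocked ratios alone. Set against the control run, where the nsLTP1 peptide had 1.418 ± 0.11 and the seventh cysteine of the unnumbered LTP 0.824 ± 0.04, the nsLTP1 peptide differed 1.06-fold and the seventh cysteine 1.21-fold, the opposite order, and the eighth has no control value.

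Of the entries with 1 peptide each, nsLTP6 had 1.675 for APGGGCCTGVR, with an SD listed as 0 and a score of 28. This is close to the 1.654 ± 0.14 of the 19-residue peptide, which holds the same adjacent cysteines of the pattern. LTP 7a2b, whose peptide also matches 3 further database entries, had 1.323 ± 0.18 for LAPCVAYVTGR, with the second cysteine. Its SD range, 1.143 to 1.503, reaches below the upper control limit of 1.24, so its place above the limit is within the authors' SD. Among the 5 lipid transfer peptides of the blocked run with an SD above 0, ranges were apart for 5 of 10 pairs. CNVNLPYK was the lower member of 4 of these pairs, and in the fifth LTP 7a2b stood below the 19-residue peptide, by 1.25-fold. The share of pairs apart among other peptides of the run was not counted, so this spread cannot be called a trait of the family.

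**Figure D2:**
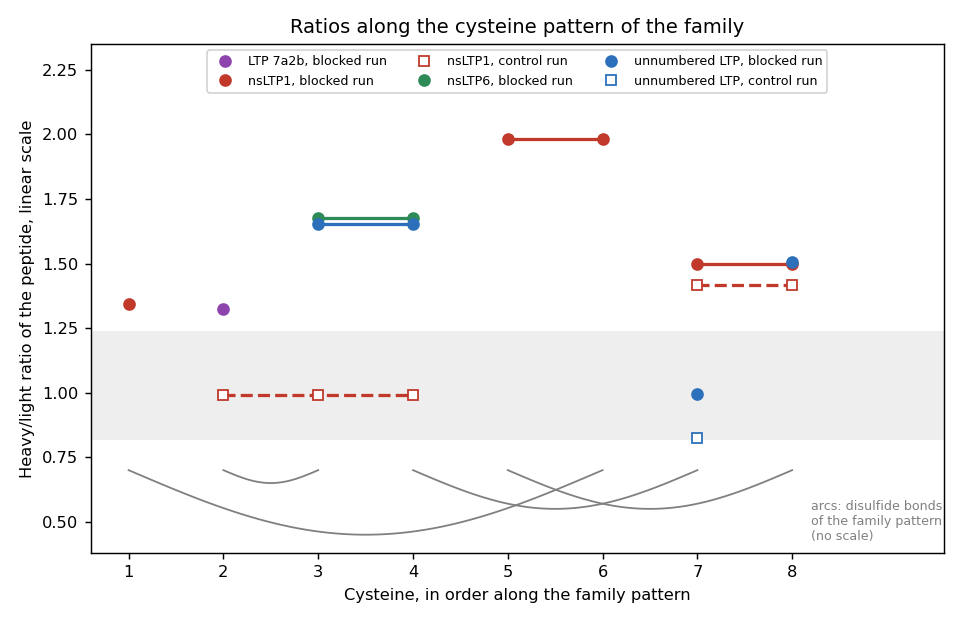
Heavy/light ratio (vertical axis, linear) of each peptide drawn over the cysteines it holds, numbered 1 to 8 in order along the family pattern. Colours are entries, filled circles the blocked run, open squares with dashed lines the control run, the grey band the control limits, and arcs the disulfide bonds known for nsLTP1; the blocked values lie above the band except the unnumbered LTP's cysteine 7 at 0.994.

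Ratios in the blocked run were also set out by the number of cysteines in the peptide, as a description with no test of the difference. The 4 lipid transfer peptides with 2 cysteines had ratios of 1.498 to 1.981 and a median of 1.66, and all 4 lay above the limit. The 4 with 1 cysteine had 0.994 to 1.505 and a median of 1.33, and 3 lay above, so that the ranges of these sets overlapped slightly. Among the other peptides of the run, 6 of 9 with 2 or 3 cysteines lay above, with a median of 1.67, and 88 of 182 with 1 cysteine, with a median of 1.23. The 3 of the 9 within the limits were peptides of lactoylglutathione lyase at 1.027 ± 0.10, a cupin family protein at 1.056 ± 0.09 and the pyridoxal biosynthesis protein PDX1.1 at 1.107 ± 0.14. The exact 95% interval of the share of 6 in 9, 29.9% to 92.5%, holds the 48.4% of the peptides with 1 cysteine. This interval covers counting error only, treats peptides of 1 sample as independent, and is no test of a difference. A peptide with several cysteines appears in the light form only when each of them took the light tag, so its ratio is not a loss per cysteine. The deposited modifications list as many tags as cysteines in every peptide of both runs.

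Lipid transfer proteins supplied 4 of the 13 peptides with 2 or 3 cysteines in the blocked run and 2 of the 3 in the control run. Adjacent cysteines occurred in 5 of 199 blocked peptides, 2 of them from lipid transfer proteins at 1.654 ± 0.14 and 1.675. The other 3, from Barperm1, an avenin-like protein and enolase, had 1.508 ± 0.36, 1.833 ± 0.19 and 2.464 ± 0.29. All 5 lay above the limit, as did 50.8% of all peptides of the run. The Barperm1 peptide lay above it by less than its own SD, and the value of 1.675 has an SD listed as 0. The motif with a single residue between cysteines occurred in QTVCNCLK and in the PDX1.1 peptide.

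**Figure D3:**
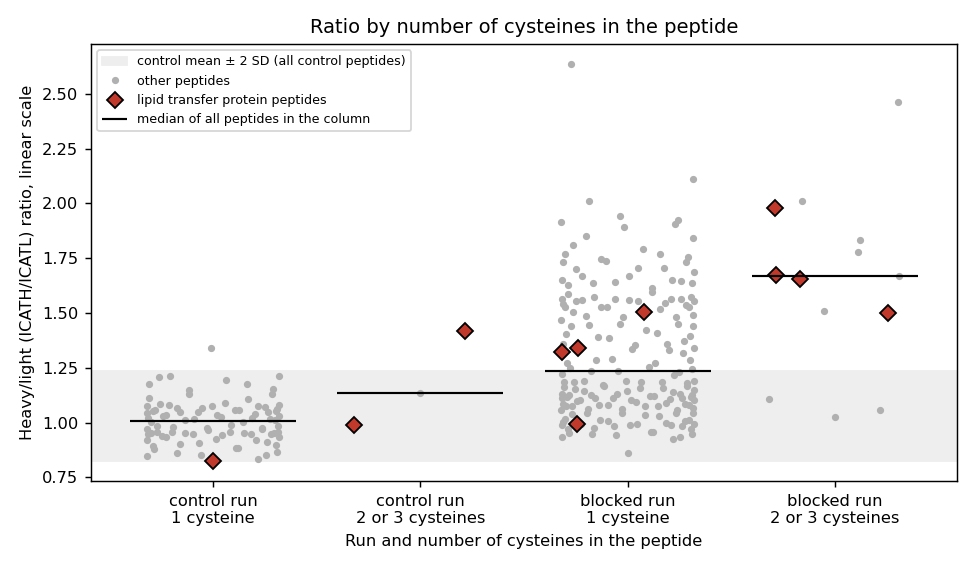
Heavy/light ratio (vertical axis, linear) of every peptide by run and number of cysteines, with lipid transfer protein peptides as red diamonds, other peptides as grey points, and the median of each column as a line. The grey band marks the control limits, 0.822 to 1.24; the 4 lipid transfer peptides with 2 cysteines in the blocked run span 1.498 to 1.981, within the spread of the other peptides of that kind.

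The 2 lipid transfer peptides read in both runs were the highest and the lowest of all 93 control ratios. The 17-residue peptide of nsLTP1 had 1.418 ± 0.11 without the block, place 1 of 93, and 1.498 ± 0.17 with it. The difference was 0.08 on the log2 scale (1.06-fold), place 72 among the 82 shared peptides when ordered from the largest, and the SD ranges overlapped. Its ratio was thus above the limit in both runs.

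CNVNLPYK of the unnumbered LTP had 0.824 ± 0.04 without the block, place 93 of 93, just above the lower limit of 0.822, and 0.994 ± 0.08 with it. Its difference was 0.27 on the log2 scale (1.21-fold), place 47 of 82, with SD ranges apart. By the blocked ratio alone the nsLTP1 peptide was the higher of the pair, and by the difference from the control run CNVNLPYK was. With and without the block, CNVNLPYK had Mascot scores of 28 and 53, and the 17-residue peptide 85 and 56.

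Across the 82 shared peptides the typical (median) log2 difference was 0.31, or 1.24-fold, with an SD of 0.25 between peptides, so both lipid transfer peptides lay below it. Their own median difference of 0.17 became -0.13 when each run was centred on the median of all its peptides. The centred value is relative to the run, since centring also takes off a response to the block that many peptides share. Where both runs list an SD above 0, which is the case for 69 shared peptides, 62.3% had a blocked range above the control range, against 1 of these 2. The other 6 lipid transfer peptides of the blocked run, QTVCNCLK among them, have no control value of their own. For a family whose control ratios covered 0.824 to 1.418, their ratios cannot be set against an unblocked value of the same peptide.

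**Figure D4:**
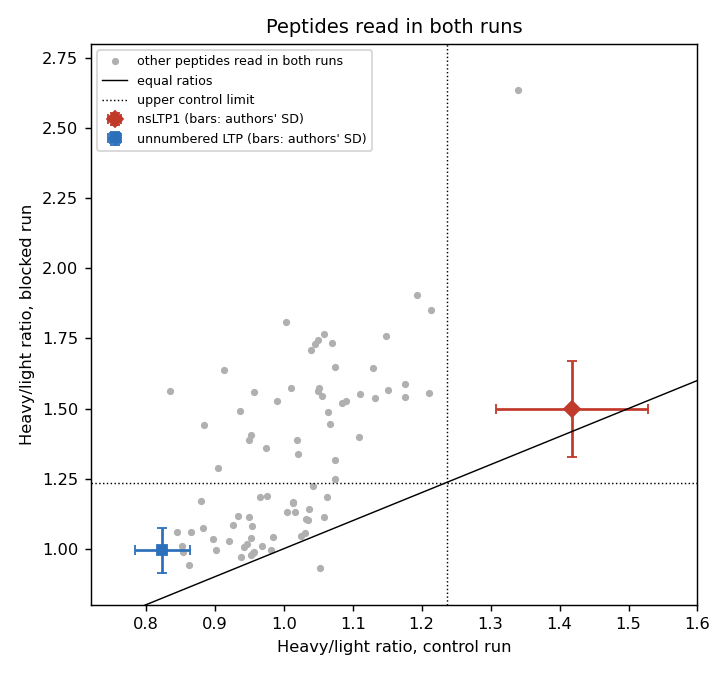
Blocked against control heavy/light ratio of the 82 peptides read in both runs (linear axes), with the 2 lipid transfer peptides coloured and their bars the authors' SD. The solid line marks equal ratios and the dotted lines the upper control limit of 1.24; the nsLTP1 peptide sits at the far right (1.418, 1.498) and CNVNLPYK at the far left (0.824, 0.994).

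Other seed proteins with many disulfide bonds gave 11 peptides in the blocked run, from Bowman-Birk trypsin inhibitors, the alpha-amylase inhibitor BDAI-1, Barperm1, B1 hordein, an avenin-like protein and an endochitinase. Of these, 7 lay above the limit and the median was 1.508, next to 1.5015 for the lipid transfer peptides. The 4 of them that hold 2 or 3 cysteines had a median of 1.75 and all lay above, and their 7 with 1 cysteine a median of 1.19 with 3 above. The highest was a Bowman-Birk peptide with 3 cysteines at 2.01 ± 0.39 and the lowest a Barperm1 peptide at 1.003 ± 0.09. The only one read in both runs was GQFEHNCPPTNYSK of Barperm1, a thaumatin-like protein, with 1.188 ± 0.06 and 0.975 ± 0.06 and SD ranges apart.

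Proteins typical of the starchy endosperm were present in the embryo extract, with 5 peptides in the blocked run at 1.111 to 1.916 and 1 in the control run at 1.075. The part of tissue other than embryo in the lipid transfer ratios was not tested. Across the whole blocked run, the ratios nearest to the upper limit were those of ascorbate peroxidase at 1.242 ± 0.19 and, just below it, of a cell division cycle protein 48 homolog and a glycyl-tRNA synthetase, both at 1.236, and no lipid transfer peptide lay between these values. The peptides of other proteins with the nearest blocked ratio to a lipid transfer peptide were a zinc-binding oxidoreductase for QTVCNCLK (2.01 ± 0.35), the Bowman-Birk peptide TCLPSR for ISPSVDCNSIH and the 17-residue peptide (1.503, SD listed as 0), and aspartyl aminopeptidase for CNVNLPYK (0.994 ± 0.07). This likeness is over 1 sample.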

How the data were processed

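The deposited tables list 1 row per tagged peptide. Per the labels and series description, peptides were captured on avidin and measured on a QSTAR instrument, peak lists came from the Mascot script 1.6b20 for Analyst QS 2.0, and Mascot searched Swiss-Prot 54.6, a non-redundant collection and HvGI 9.0. Ratios came from MSQuant 1.4.3a12, and the authors kept matches from a score of 20. The deposited heavy/light ratio is the authors' average, with their SD in ratio units. The number of ratios behind it and any centring are not given in the sources used here. The deposited score is Mascot's, and the deposited charge and masses were used only as descriptions. An SD of 0 is listed for 27 blocked and 10 control peptides.

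Ratios were taken to log2 (Python 3.11.15, pandas 2.3.3, scipy 1.17.1), and the limits, counts, differences and apparent loss, 100 × (1 − light/heavy), were computed on the full tables after the code was tested on simulated data. No p-value was computed. All lipid transfer peptides are named. Of the comparison lists, the highest, the lowest and the shared peptides are named, with those nearest to the limit. Other non-members in the cysteine motif comparison were chosen after their values were seen. The comparison list, a set of words in protein names, also caught an S-adenosylmethionine synthetase, which was left out. Members and lists were chosen with earlier results of these data known.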

Additional observations from a re-analysis of the deposited data

How the results depend on the processing

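A score filter with the limits of all control peptides was added after seeing the data. With the block, the 7 of 8 lipid transfer peptides above the limit became 4 of 5 with an SD above 0 only, 3 of 8 with each run centred on its own median, 4 with a fixed ratio of 1.5, 0 with a fixed ratio of 2, and 3 of 4 with 1 cysteine and limits from such control peptides. It was 5 of 5 with a score of at least 40 under either limit, and 5 of 8 with limits of 3 SD. These counts are of lipid transfer peptides alone. The share of all blocked peptides, 50.8%, is given for the limit of mean + 2 SD only. The counts under the other settings therefore have no exact share of the run beside them. As a guide, ratios of 1.505 and 1.981 held places 64 and 6 of 199 in the blocked run. For limits of 3 SD, the lowest lipid transfer peptide above held place 66 and the next one below place 87. The control count of 1 became 0 with fixed ratios of 1.5 and 2 and with 1 cysteine only. The median log2 ratio of the blocked run, 0.59, was 0.27 after centring and 0.41 with 1 cysteine only. The span between the lowest and highest peptide, 0.99 on the log2 scale, was 0.32 with a score of at least 40, which drops CNVNLPYK and QTVCNCLK, 0.73 with an SD above 0 and 0.60 with 1 cysteine. The median difference over the 2 shared peptides, 0.17, turned to -0.13 after centring. The run medians taken off were log2 ratios of 0.32 over all blocked peptides and 0.016 over all control peptides. Centring removes any shift common to the run, including a response to the block that many peptides share, so centred values are relative to the run. No paired analysis was possible because each group has 1 sample. How many spectra a ratio rests on is unknown, so the authors' SD is the only measure of precision for single values.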
